A study of Rattus norvegicus with 12 samples.

Results

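The miR-322, miR-503 and miR-450 cluster of the rat was followed across 12 samples of the medial entorhinal cortex. It was represented by 8 of the 375 miRNA assays on the card: miR-322, miR-503, miR-351, rno-miR-351, miR-450b-5p, rno-miR-450a, miR-542-3p and miR-542-5p. The cluster was chosen by a measured value, a lower level of miR-322 in stellate than in non-stellate cells in all 5 sorted pairs, and the assays were then taken by their names. All samples came from Long Evans rats. The stellate samples (5) were cells labelled by the lipophilic dye DiO, injected into the dentate gyrus on postnatal day 2, and sorted as DiO positive on day 4 or 5. The non-stellate samples (5) were the DiO negative cells of the same dissections, and the tissue samples (2) were undyed, unsorted medial entorhinal cortex from day 23. Labelling marks cells whose axons reached the injection, so a stellate cell that took up no dye falls into the non-stellate group. Cells of both hemispheres were pooled.

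A miRNA is cut from a hairpin precursor and guides the silencing complex to messenger RNAs that pair with its seed, which lies near the 5′ end. MiR-322, the rodent counterpart of human miR-424, and miR-503 are relatives of the miR-15 and miR-16 family, which is known for holding back cyclins and other drivers of the cell cycle. MiR-351 carries the seed of the miR-125 family, better known from neurons and from blood stem cells. Neighbouring miRNAs can be cut from 1 shared transcript, and their mature levels can still differ through processing and turnover.

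The sequences show how the members fall into seed groups. RefSeq (GRCr8) places 6 hairpins on chromosome X between 137720933 and 137726241, all on the minus strand, within 5309 bases. In the direction of transcription the order is Mir322, Mir503, Mir351, Mir542, Mir450b-1 and Mir450a1. Mir322, Mir503 and Mir351 lie within LOC102550366, annotated as a lncRNA at 137724960 to 137729208, and the other 3 lie in no other gene of the table. The Mir322 hairpin is at chrX:137726147-137726241 and the Mir450a1 hairpin, at the other end, at chrX:137720933-137721023. The table does not give exons or introns. The mature rat sequences are given 5′ to 3′ with the seed, bases 2 to 8, in capitals. Assay names without an arm were read as the 5p product.
miR-322: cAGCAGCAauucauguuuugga
miR-503: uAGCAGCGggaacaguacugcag
miR-351 and rno-miR-351: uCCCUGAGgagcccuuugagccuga
miR-542-3p: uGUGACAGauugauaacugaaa
miR-542-5p: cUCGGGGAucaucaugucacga
rno-miR-450a: uUUUGCGAuguguuccuaaugu
miR-450b-5p: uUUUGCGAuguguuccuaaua

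MiR-322 and miR-503 were identical from base 2 to base 7, which leaves base 8 as the point where their seeds part. MiR-450a and miR-450b were identical over bases 1 to 20. The 7 mature sequences thus held 6 different seeds. The assays miR-351 and rno-miR-351 bear the mouse and the rat name of the same miRNA.

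Levels are given as U6-scaled Ct, the PCR cycles by which an assay came up later than U6, a small nuclear RNA used as the reference. More cycles mean less miRNA, and 1 cycle is 1 log2 unit. Assays were not calibrated against each other, so an order between assays is one of cycles and not of molecules. Between 234 and 260 assays had a determined Ct in stellate samples, 203 to 241 in non-stellate samples and 292 to 302 in tissue. Non-stellate 5 had the fewest and the latest U6, at Ct 20.2. A description field calls non-stellate 3 and 5 labelled, against their other labels. The neuron markers (5 of 5) were determined in all 12 samples. The oligodendrocyte marker miR-219 was undetermined in all 5 stellate samples and in 3 of 5 non-stellate samples. The other oligodendrocyte marker, miR-338-3p, went the other way. It was determined late in stellate 1, 2 and 5 (Ct 34.961, 34.983 and 34.998) and undetermined in all 5 non-stellate samples.

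The order by U6-scaled Ct in stellate samples ran from miR-351 (11.2 ± 0.794, SD, n = 5) over miR-322 (13.0 ± 1.20), rno-miR-351 (13.7 ± 0.732), miR-503 (13.8 ± 1.07), miR-542-5p (15.0 ± 1.19) and rno-miR-450a (16.1 ± 1.13) to miR-542-3p and miR-450b-5p. The neighbours rno-miR-351 and miR-503 lay within each other's spread, as did miR-322 and rno-miR-351. MiR-542-3p was determined in 4 of 5 stellate and 3 of 5 non-stellate samples, and miR-450b-5p in 4 of 5 of each. In non-stellate samples miR-351 again came first (10.8 ± 0.610, SD, n = 5), followed by miR-322 (11.3 ± 0.929), and these ranges overlapped. In tissue miR-322 led (8.79 ± 0.238, SD, n = 2), before rno-miR-450a (11.0 ± 0.447) and miR-351 (11.5 ± 0.126).

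**Figure D1:**
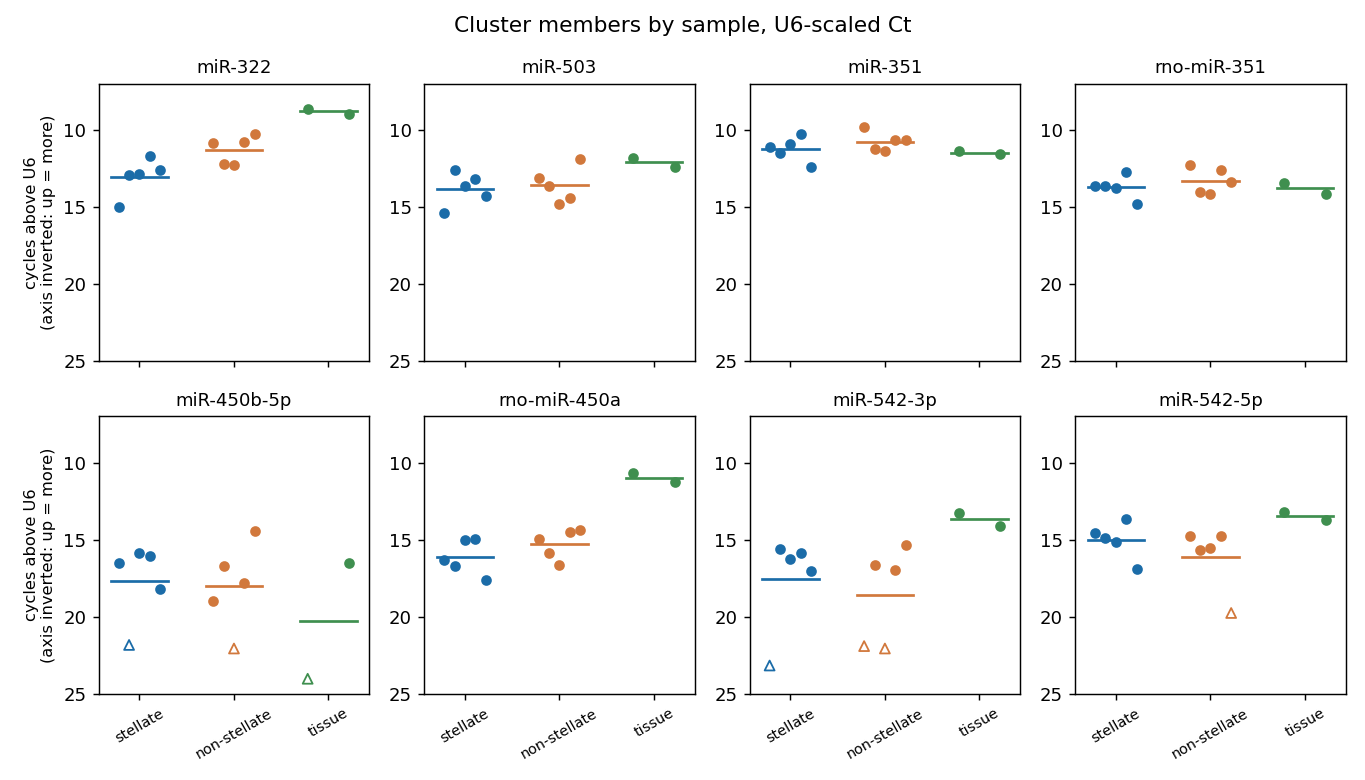
Each point is 1 sample and the vertical axis gives cycles above U6, inverted so that more miRNA lies higher; bars are group means and open triangles are undetermined wells set at Ct 40. Both tissue samples lie above all 10 sorted samples for miR-322 and rno-miR-450a, and among the sorted samples for both miR-351 assays. On this scale 62.2% of the 222 tested assays were called higher in tissue, and how many lay above all sorted samples was not counted.

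The comparison of day 23 tissue with sorted neonatal cells was not used to choose the cluster and was tested with limma over 222 assays, undetermined in at most 3 of 10 sorted samples. All 8 members met that limit. Age, sorting and the amount of RNA cannot be told apart in this comparison, nor can fewer cells of a type and less RNA per cell. With U6 scaling rno-miR-450a and miR-322 rose, and the other 6 members did not pass. Of the 222 assays 62.2% were called higher and 1.35% lower, against 2 and 0 of the 8 members. The median log2 difference was 3.02 over all tested assays and 1.83 over the members.

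MiR-450a belongs to the end of the cluster farthest from Mir322. The U6-scaled Ct of rno-miR-450a was 16.3, 16.7, 15.0, 15.0 and 17.6 in stellate 1 to 5. It was 15.0, 15.9, 16.6, 14.5 and 14.4 in non-stellate 1 to 5, and 10.7 and 11.3 in tissue. Both tissue samples were thus more than 3 cycles ahead of every sorted sample, where the median log2 difference of all tested assays was 3.02. For rno-miR-450a the log2 difference was 4.73 ± 0.78 (SE, limma adjusted p = 0.000263, exact two-sided permutation p = 0.0152, the smallest that 2 against 10 allows). After centring each sample on its median Ct, taken over 176 assays without an undetermined well, it was 1.74 ± 0.54 (limma adjusted p = 0.0209). The call was lost with quantile normalization (1.84, limma adjusted p = 0.132) and with Y1 as the reference (1.22, limma adjusted p = 0.174). It was also lost after centring when the tissue samples were counted as 1 (limma adjusted p = 0.121). A further assay for the same product, mmu-miR-450a-5p, is not among the 8 members and was undetermined in 5 of 10 sorted samples. Its Ct was 32.3 to 33.2 in the other 5, and 27.8 and 28.1 in tissue.

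MiR-322, the member with the miR-15 and miR-16 seed, had a U6-scaled Ct of 15.0, 13.0, 12.9, 11.7 and 12.6 in stellate 1 to 5. It was 10.9, 12.2, 12.3, 10.8 and 10.2 in non-stellate 1 to 5, and 8.62 and 8.95 in tissue. Tissue lay ahead of all sorted samples, and stellate 1 was the lowest of the 12. Tissue exceeded sorted cells by a log2 difference of 3.38 ± 0.79 (SE, limma adjusted p = 0.00234), 0.36 above the median of all assays. After median centring it was 0.39 ± 0.60 and no longer passed (limma adjusted p = 0.607), and with Y1 as the reference it was -0.13. MiR-503, its neighbour in sequence and on the chromosome, differed by 1.59 ± 0.81 with U6 scaling (limma adjusted p = 0.104) and by -1.40 ± 0.57 after centring (limma adjusted p = 0.0603). Its direction was not settled. MiR-503 was called higher without non-stellate 5 (1.81) and with snoRNA135 (1.99) or U87 (2.35) as the reference, and lower with quantile normalization (-1.87) and after centring with undetermined wells missing (-1.40).

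In the difference of tissue minus sorted cells both miR-351 assays lay below the median of all tested assays, with U6 scaling and after centring. After centring the percentile ranks of miR-351 and rno-miR-351 among the 222 assays were 9.0 and 11.7. The U6-scaled Ct of the miR-351 assay was 11.1, 11.5, 10.9, 10.3 and 12.4 in stellate 1 to 5, 9.84, 11.2, 11.4, 10.7 and 10.7 in non-stellate 1 to 5, and 11.4 and 11.6 in tissue. The stellate and non-stellate samples overlapped on this scale. Both tissue samples lay inside the stellate range and slightly beyond the latest non-stellate sample (11.40 and 11.58 against 11.37). With U6 scaling the log2 difference, tissue minus sorted, was -0.49 ± 0.61 (limma adjusted p = 0.509), and it was -0.28 ± 0.65 for rno-miR-351 (limma adjusted p = 0.712). After median centring both fell, by 3.48 and 3.27 on the log2 scale, with an adjusted limma p of 0.00018 and 0.000157. On that scale miR-351 came up 3.66 and 3.48 cycles after the sample median in tissue and at most 1.63 after it in sorted samples. Of the 8 members 1 was called higher and 2 lower after centring, against 23.9% and 25.2% of all tested assays. The 2 lower calls are the 2 assays of the same miRNA. Both miR-351 assays were also called lower with global mean scaling, quantile normalization and Y1. With U87 as the reference both were above 0 (0.27 and 0.47) and did not pass, and rno-miR-351 was at 0.11 with snoRNA135.

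The 2 miR-351 assays gave parallel readings. Rno-miR-351 came up 2.48 ± 0.299 cycles after miR-351 (SD, n = 12), with a range of 1.95 to 2.87 that did not separate tissue from sorted cells.

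**Figure D2:**
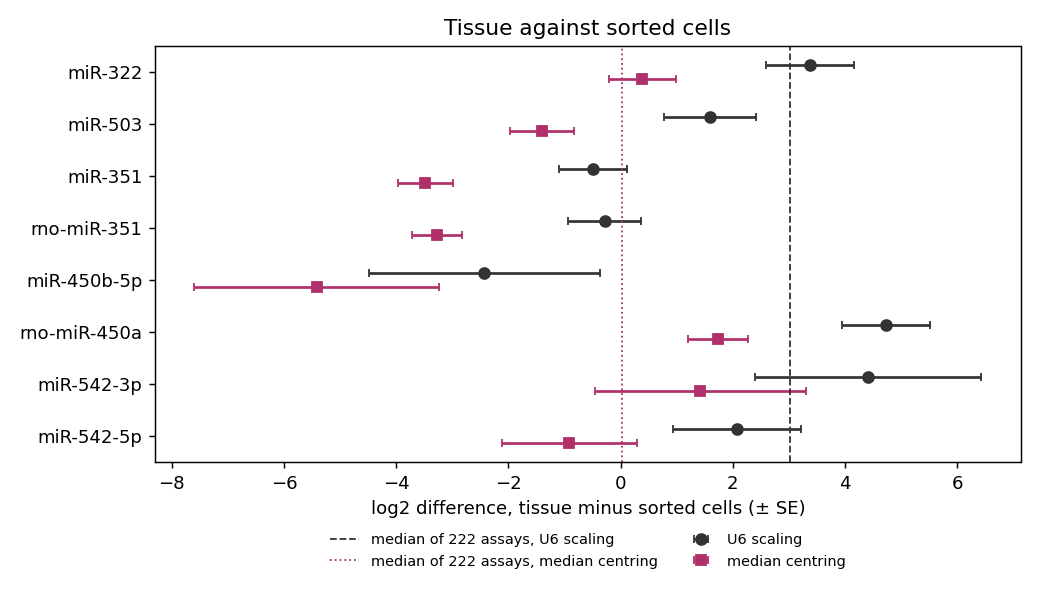
Log2 difference of tissue minus sorted cells for each member with its SE from limma, under U6 scaling (circles) and median centring (squares); vertical lines mark the median of the 222 tested assays on each scale, 3.02 and 0.03. Rno-miR-450a lies above the median line on both scales and both miR-351 assays below it.

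The remaining members were limited by undetermined wells. MiR-542-3p and miR-542-5p are the 2 arms of the Mir542 hairpin. Their log2 differences were 4.41 ± 2.01 and 2.08 ± 1.14 with U6 scaling (limma adjusted p = 0.0709 and 0.129). When undetermined wells were treated as missing, miR-542-3p passed at 2.58 (limma adjusted p = 0.00397), while after centring it was -0.18 with these wells missing. In tissue both arms came up together, with miR-542-5p minus miR-542-3p at -0.017 and -0.35 cycles. In the 6 sorted samples with both wells determined this ran from -2.21 to -0.13. MiR-450b-5p was determined in tissue 2 (Ct 32.1) but not in tissue 1, so its log2 difference of -2.43 ± 2.06 includes tissue 1 at 40. Stellate 2 and non-stellate 3 also entered at 40. The difference was 0.30 with undetermined wells missing and 1.33 without tissue 1. Without tissue 2, where the undetermined well was the only tissue well left, it was -6.18.

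Differences between members within the same sample do not depend on any reference, since the scaling cancels. MiR-351 minus rno-miR-450a ran from -5.27 to -3.69 cycles in the 10 sorted samples and was 0.30 and 0.75 in tissue. These ranges were apart by more than 3 cycles. MiR-351 minus miR-322 was -1.79 ± 1.34 in stellate samples (SD, n = 5), -0.53 ± 0.65 in non-stellate samples (SD, n = 5), and 2.63 and 2.79 in tissue. For rno-miR-351 minus miR-322 the sorted samples ran up to 3.15 and the tissue samples were at 4.84 and 5.19. MiR-503 minus miR-322 was 3.22 and 3.44 in tissue, inside the range of the non-stellate samples (1.38 to 3.62). These pairs were singled out after their values were seen, and no test was made. The sorted wells lay between Ct 27.9 and 34.9 for these assays and the tissue wells between 24.5 and 29.7, and whether amplification at late cycles had a part in the differences was not tested.

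**Figure D3:**
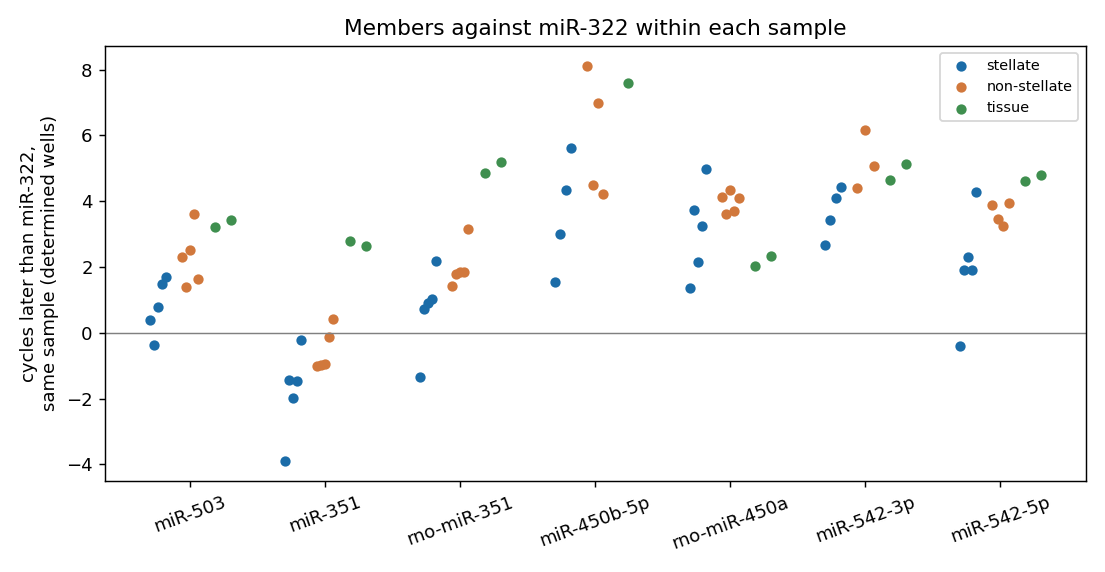
Each point is 1 sample with both wells determined, and the vertical axis gives the cycles by which a member came up after miR-322 in that sample. Tissue lies above all sorted samples for both miR-351 assays, and at 2.03 and 2.33, among the stellate and below the non-stellate samples, for rno-miR-450a.

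Between stellate and non-stellate cells the values are a description, because miR-322 was picked on this contrast. Of the 222 assays 0% passed (0 with U6 scaling by limma, with 16 at an unadjusted p under 0.05). The log2 difference of miR-322, stellate minus non-stellate, was -4.14, -0.73, -0.55, -0.92 and -2.38 in pairs 1 to 5, with a mean of -1.74. It was lower in all 5 pairs, with the smallest difference in pair 3, but the groups overlapped on the U6 scale. This selection held for 0.901% of the 222 assays, miR-322 and, named after its values were seen, miR-98, whose smallest difference was -0.30. Rno-miR-450a was lower in 4 of 5 pairs, with 1.64 in pair 3. Over all assays only the share lower in all 5 pairs was counted, so lower counts of pairs have no background. After median centring miR-322 lay 1.17 to 3.65 cycles after the sample median in stellate and -0.46 to 0.99 in non-stellate samples, so that the groups did not overlap. On that scale 12.2% of the 222 assays were lower in all 5 pairs, and the share without overlap was not counted. For miR-322 tissue was at 0.85 and 0.87, among the non-stellate samples. Without non-stellate 3 and 5 the mean difference of miR-322 was again -1.74, and over 18 settings it ran from -2.14 to -0.96.

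The other members did not share a direction in the sorted pairs. With U6 scaling miR-503 was lower in 2 of 5 pairs, with differences from -2.45 to 1.21. Its mean of -0.25 turned to 0.53 with snoRNA202, 0.057 with Y1, 0.24 without pair 1 and 0.30 without pair 5. MiR-351 and rno-miR-351 were each lower in 3 of 5, with means of -0.48 and -0.44 that turned to 0.31 and 0.35 with snoRNA202. MiR-542-5p was lower in 0 of 5, with a mean of 1.06 that includes the undetermined well of non-stellate 5. The mean was 0.62 without that pair, 0.15 with undetermined wells missing, 0.065 with Ct capped at 35 and 0.025 without non-stellate 3 and 5. The median over the 8 members was -0.35, against 0.46 over all tested assays, and it was 0.07 without pair 5 and 0.44 with snoRNA202 as the reference. After median centring miR-322, rno-miR-351 and rno-miR-450a, 3 of 8, were lower in all 5 pairs, and 12.2% of all tested assays were. MiR-322 was chosen on this contrast, so the counts are given side by side and nothing is read from them.

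**Figure D4:**
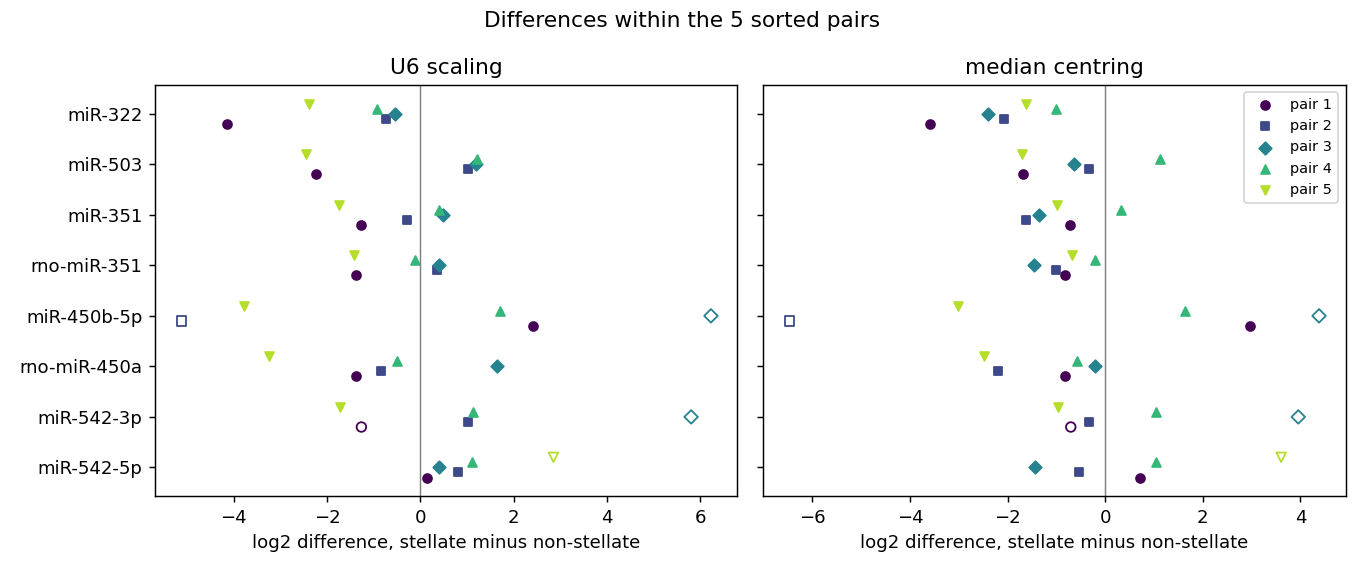
Log2 difference of stellate minus non-stellate within each of the 5 pairs, with U6 scaling on the left and median centring on the right; open symbols are pairs with an undetermined well. MiR-322 lies below 0 in all 5 pairs on both sides, and the pairs of miR-450b-5p and miR-542-3p scatter most.

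The assays most like miR-322 were sought among 175 others determined in all sorted samples, by Pearson's r over the 10 sorted samples after median centring. The closest was miR-15b (r = 0.946), which has the same seed and lies outside the cluster. It was followed by miR-93 (0.858), miR-106b (0.831), let-7b (0.824) and miR-20a (0.820). MiR-16, miR-195 and miR-497 have the same seed and were ranked too, but none was among these 5. By Spearman's rho miR-93 (0.891) was above miR-15b and miR-106b (both 0.855). With U6 scaling miR-15b ranked 3 (r = 0.771), and miR-106b was above it (0.793). Within the cluster rno-miR-450a ranked 26 (0.640), miR-503 34 (0.580), rno-miR-351 41 (0.520) and miR-351 43 (0.506). The points share animals within pairs and include the difference between the groups. For deviations from the group means miR-15b again came first (r = 0.830), and it was the 1 of the 5 to remain among the first 5. Without stellate 1 and 2, the samples farthest from the median of miR-322, r was 0.865. On the card miR-15b was the earlier of the pair, -1.79 to -0.29 cycles from the sample median in sorted samples.

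**Figure D5:**
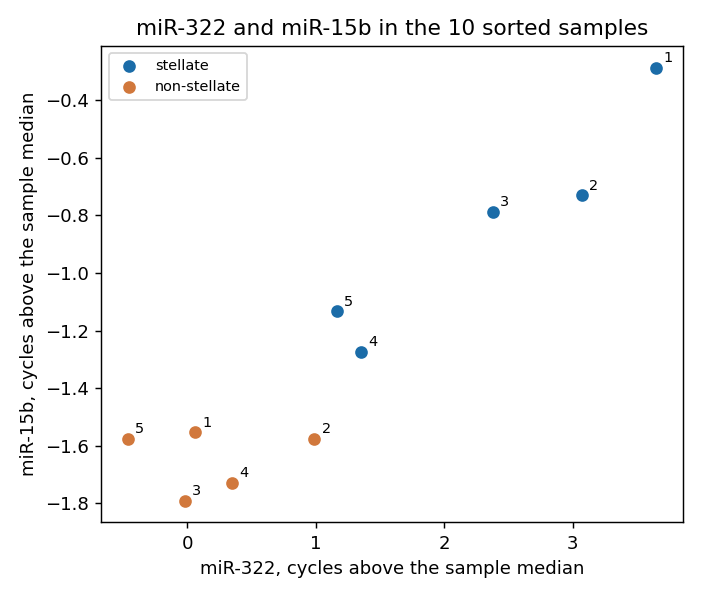
Cycles above the sample median for miR-322 (horizontal) and miR-15b (vertical) in the 10 sorted samples, numbered by pair; higher values mean less miRNA. The 5 stellate samples lie above and to the right of the 5 non-stellate samples, and stellate 1 is the farthest out.

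The seed relatives outside the cluster numbered 7 on the card, by match of RefSeq sequences. They are miR-15b, miR-16, miR-195 and miR-497, with the seed of miR-322, miR-125a-5p and miR-125b-5p, with that of miR-351, and the further miR-450a-5p assay. A few are shown with the seed in capitals, to set beside the members above.
miR-15b: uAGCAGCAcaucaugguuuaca
miR-195: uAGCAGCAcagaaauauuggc
miR-125a-5p, for miR-351: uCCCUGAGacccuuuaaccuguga

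Assays with the seed of miR-322 differed from each other between tissue and sorted cells. After median centring miR-15b fell by 2.48 on the log2 scale (limma adjusted p = 3.01e-05) and miR-497 fell by 1.73 (limma adjusted p = 0.00748), while miR-195 differed by 0.63 ± 0.52 and miR-16 by -0.78 ± 0.44 without passing. MiR-322, at 0.39, lay between miR-16 and miR-195. MiR-125a-5p rose by 1.01 ± 0.33 (limma adjusted p = 0.0239) where miR-351 fell, and miR-125b-5p differed by 0.09. With U6 scaling all 6 tested relatives were above 0, from 0.51 for miR-15b to 4.00 for miR-125a-5p. Of the 45 other assays matched to chromosome X, 20 were tested. With U6 scaling 13 were called higher and 0 lower, and after centring 3 were called higher and 4 lower. Their median log2 difference after centring was 0.39, against -1.15 for the members.

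Marker lists were read beside these differences, and their counts moved with the scaling as those of all assays did (62.2% higher and 1.35% lower with U6 scaling, 23.9% and 25.2% after centring). In tissue 4 of 4 vascular miRNAs were called higher with U6 scaling and 2 of 4 after centring, with a log2 summed level relative to U6 of -3.52 to -2.99 in tissue, -10.2 to -5.96 in stellate and -11.0 to -8.05 in non-stellate samples. Of the 8 miRNAs of dividing progenitors, which include miR-93, miR-106b and miR-20a, 2 were called higher and 0 lower with U6 scaling, and 1 higher and 6 lower after centring. Their summed level was -3.28 to -2.94 in tissue, -5.54 to -3.36 in stellate and -4.57 to -2.52 in non-stellate samples. Neither oligodendrocyte marker was determined often enough to be tested, and their summed level was -9.90 and -9.03 in tissue, at most -16.8 in stellate and at most -13.4 in non-stellate samples, with both undetermined in some of each. Of the mesenchymal and meningeal list 0 of 2 tested were called with U6 scaling and 1 was called lower after centring, with ranges of -9.83 to -9.47 in tissue, -10.6 to -8.08 in stellate and -11.1 to -9.45 in non-stellate samples, and miR-10b was undetermined in all sorted samples. Of the blood and microglia list 4 of 5 tested were called higher with U6 scaling and 1 after centring, with summed levels of -4.36 to -4.07 in tissue, -9.10 to -5.22 in stellate and -9.15 to 8.52 in non-stellate samples, the last from miR-155 wells at Ct 11.3 and 11.7 in non-stellate 3 and 5. MiR-142-5p and miR-451 were undetermined in all sorted samples. Neuron miRNAs were called higher for 5 of 5 with U6 scaling and 2 of 5 after centring, with sums of 0.49 to 0.91 in tissue, -3.06 to -1.84 in stellate and -4.21 to -1.44 in non-stellate samples. Of 5 tested choroid plexus and ependyma miRNAs 1 was called higher and 1 lower with U6 scaling, and 1 higher and 2 lower after centring, with sums of -5.35 to -5.12 in tissue, -9.23 to -6.44 in stellate and -10.0 to -7.83 in non-stellate samples. For stellate minus non-stellate cells the centred median difference was -0.85 for the dividing progenitor list and -0.17 for the blood and microglia list. It was 0.33 for the mesenchymal and meningeal, 0.57 for the neuron, 0.92 for the choroid plexus and ependyma, and 1.02 for the vascular list. Over all tested assays it was 0.07. The part of these cells in the values of the cluster was not tested.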

How the data were processed

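MiRNAs were measured on a TaqMan rodent array, card A, after Megaplex reverse transcription and pre-amplification, and Ct was read by the authors with ViiA7 software. The deposited raw table holds Ct on a log2 scale, with 40 for an undetermined well. The authors' normalized table, also log2, equals Ct minus the mean of 4 U6 wells (largest difference 5.3e-15). The authors' tables of fold changes and of limma results were not used. No column of per-sample values was left unused (0). Precision of a well is known only from U6 (pooled SD 0.366 cycles), and the values are not molecule counts.

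Groups followed the sample titles. Tests covered the 222 assays with no more than 3 undetermined wells among 10 sorted samples. The contrast of tissue minus the average of the sorted group means was fitted in limma 3.58.1 (R 4.3.3; lmFit, eBayes, two-sided, Benjamini-Hochberg, threshold 0.05) over all 12 samples, with U6 scaling and without a block, as the methods state none. Undetermined wells entered at 40. The tissue samples were counted as 2 by their labels, although the SD of their difference over 230 assays under Ct 30 (0.389 cycles) was below the 0.518 of 2 U6 wells, and a fit with their mean as 1 sample was made. Whether samples came from separate animals is stated only as biological replicates. The labels give labelled and unlabelled cells of the same replicates, so the numbers were read as pairs, and deviations from the group means correlated within pairs 1 to 5 at 0.331, 0.119, 0.256, 0.155 and 0.0743, against -0.0481 between numbers. The code was tested on simulated data.

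The members, lists and tests were chosen with earlier results of these data known. Named miRNAs are the 8 members, the 5 assays with the highest r with miR-322, and card assays with a member's seed. Of 375 card assays 265 matched a RefSeq mature sequence by name, and lists by seed or chromosome cover only these. The sequences of the assay primers and probes were not used here.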

Additional observations from a re-analysis of the deposited data

Results flagged for a closer look

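Among 16 sets of 5 sorted samples, 2 held a sample far from the others of its group, where 0.8 would by chance. MiR-542-3p in stellate 1 had a U6-scaled Ct of 23.2, while the next highest of its group had 17.0. MiR-542-5p in non-stellate 5 had 19.8, and the next highest 15.7. Both were undetermined wells, so the values are 40 minus the U6 Ct of the sample and not measurements.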

How the results depend on the processing

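Of 34 alternatives for the number of members that differed between tissue and sorted cells (2 with U6 scaling, both higher), most gave 2 or 3, but not in 1 direction. Median centring and global mean scaling gave 1 higher and 2 lower, quantile normalization and Y1 0 higher and 3 lower, and centring with tissue counted as 1 gave 0 higher and 2 lower. The number was 4 with snoRNA135 and 5 with U87, all higher, and 4 (1 higher, 3 lower) with median centring and undetermined wells missing. The share of all tested assays called is given only with U6 scaling (62.2% higher, 1.35% lower) and median centring (23.9% and 25.2%). Counts of members under the other settings therefore have no background beside them. The number of members ran from 2 to 4 when 1 sample each was left out, with 4 without non-stellate 5, where miR-503 and miR-542-3p joined. The replicate block, as a random term, gave 2 members as without it, and 3 with median centring as without it, and in the comparison of the sorted groups the block left 0 of 222 (26 at an unadjusted p under 0.05). With the tissue samples counted as 1, miR-322 and rno-miR-450a passed with U6 scaling (limma adjusted p = 0.0288 and 0.00687), and neither did after centring (0.754 and 0.121).

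Of 277 values of single members in that comparison 24 turned direction. MiR-503 was at -1.40 after median centring (also with the block, with undetermined wells missing and with tissue as 1), -0.98 without non-stellate 3 and 5 in addition, -1.08 with the global mean, -1.87 with quantile normalization and -1.91 with Y1. MiR-542-5p was at -0.91, also with the block and with tissue as 1, -1.42 with undetermined wells missing in addition, -1.10 without non-stellate 3 and 5 in addition, -0.60 with the global mean, -1.51 with quantile normalization and -1.43 with Y1. MiR-322 was at -0.13 with Y1, miR-351 at 0.27 with U87, and rno-miR-351 at 0.11 with snoRNA135, 0.47 with U87, and between -0.62 (without tissue 1) and 0.057 (without tissue 2) when 1 sample was left out. MiR-450b-5p was at 0.30 with undetermined wells missing and ran from -6.18 (without tissue 2) to 1.33 (without tissue 1), and miR-542-3p at -0.18 after centring with these wells missing. The cause of the reversals was not tested. Of the 5 assays most like miR-322, 1 stayed among the first 5 by deviations from the group means. All 136 settings of the members' differences between the sorted groups moved by less than the spread of the pairs, although the means of miR-503, miR-351 and rno-miR-351 turned above 0 with snoRNA202, and those of miR-450b-5p (-1.19 to 1.65) and miR-542-3p (-0.21 to 1.78) took both signs. Combinations with median centring were chosen after seeing the data. No determined sorted well of miR-450b-5p or miR-542-3p came before Ct 33.4, which limits what sorted samples can show for them.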
